A study of Populus yunnanensis and Populus davidiana with 24 samples.

Results

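Stems of Populus davidiana cuttings were compared between 96 h and 48 h, with 3 libraries at each time. The genes examined were those that reached 1 FPKM in at least 3 of these 6 libraries, where FPKM is the number of sequenced fragments scaled by gene length and by the mapped fragments of the library. They were 19068 of the 43836 gene models in the deposited table. The study took cuttings from annual branches, stripped of buds and leaves, of 2 poplar species, P. davidiana and P. yunnanensis, and sampled messenger RNA from their stems at 0, 48, 96 and 120 h. It holds 24 libraries, 3 for each species and time. Every group used here was labelled as stem of cuttings at the growth stage, with no further agent or genotype given, so the groups differed by time and, in the comparison with P. yunnanensis, by species.

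A cutting has lost its roots and must form adventitious roots from stem tissue to survive. In poplars these roots arise from cells at or near the vascular cambium, after a response to wounding and a rise of auxin at the cut end. Aspens, to which P. davidiana belongs, are known to root poorly from woody cuttings. The series title names differences in rooting and the WOX homeobox transcription factors, some of which are known from Arabidopsis to act in the first steps of root founder cells. The table lists identifiers without gene names, and no annotation was used here, so genes are given by identifier, no role is assigned to them, and the stem label was not checked against tissue markers.

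Of the gene models outside the tested set, 22403 were under 1 FPKM in all 6 libraries. At the edge of the filter, 848 genes reached 1 FPKM in exactly 3 libraries, with a median of their mean levels of 1.14 FPKM, and 955 genes did so in exactly 2 libraries, with a median of 0.845 FPKM. Among the 848 genes, 134 reached 1 FPKM in all libraries of 1 time and in none of the other, so they entered the tested set through the time at which they were higher, and 13 of the 848 were called in the test described next. In the 6 libraries 17700 to 19258 genes reached 1 FPKM, and the 20 most abundant genes held 7.64% to 13.2% of the summed FPKM. Ratios of low FPKM values gave relative depths of mapped fragments from 0.946 to 1.22 times that of the 48 h replicate 1 library. The absolute number of fragments is unknown. The 48 h replicate 2 library had the lowest relative depth, the fewest genes at 1 FPKM and the largest share in the 20 most abundant genes of the 6. Whether these measures bear on the results was not tested. The count of genes called in that test and the calls of named genes in P. davidiana are given with and without this library. Summaries over the called genes use only the sets called with it.

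Of the 19068 genes, limma called 349 (1.83%) between 48 and 96 h, taking a Benjamini-Hochberg adjusted p below 0.05 as the threshold and all 12 P. davidiana libraries in the fit. Of these 221 (1.16%) were higher and 128 (0.671%) lower at 96 h. The rises had a median log2 change of 1.60 and ran from 0.70 to 3.76, and the falls had a median of -1.34 and ran from -2.80 to -0.70. At least a 2-fold difference was reached by 191 of the genes that rose and 107 of those that fell, and at least 4-fold by 53 and 11. Over all tested genes the median change was 0.0315, and 52.9% of them had a positive sign. All log2 changes were taken after 1 was added to each FPKM, so that changes of low genes are understated, and in bulk tissue fewer cells of a type and less RNA per cell cannot be told apart.

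**Figure D1:**
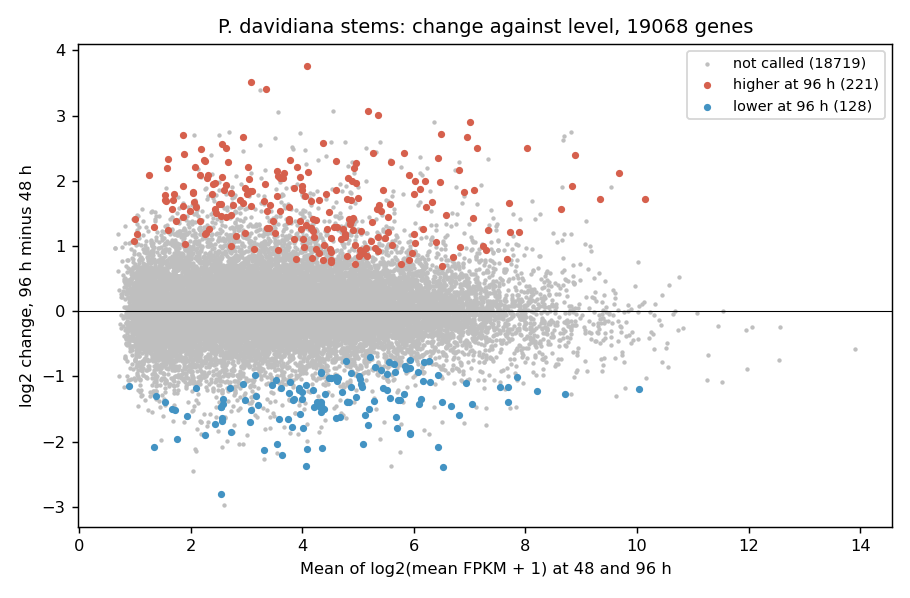
Log2 change from 48 to 96 h (y axis) against the mean log2 level at both times (x axis) for each of the 19068 tested genes in P. davidiana stems, with 1 point per gene. The 221 called genes that were higher (red) and the 128 that were lower (blue) lie across the range of levels, and many grey points with changes as large were not called.

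The genes that changed were more abundant than the tested genes at large. At the time of their higher level 44.8% of the genes that rose and 57% of those that fell had a mean of 20 to 100 FPKM, against 29.7% of all tested genes, and 18.1% and 17.2% had 100 FPKM or more, against 8.51%. Under 5 FPKM were 6.33% and 4.69%, against 26.9%. The median SE of the log2 change was 0.357 for genes with a mean under 5 FPKM and 0.222 for genes of 20 FPKM or more, so the same change was more readily called in abundant genes. Of the 120 tested genes with a change of at least 4-fold, 64 were called and 56 were not. The 221 genes that rose summed to 6119 FPKM at 48 h and to 19678 FPKM at 96 h, and the 128 that fell went from 9857 to 4015 FPKM.

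Calls in either direction were spread over all 19 numbered chromosomes, from 0.97% of the genes tested on chromosome 6 to 3.12% on chromosome 16. Unplaced scaffolds held 5 of the genes that rose and 4 of those that fell, and 2 and 1 were assembled loci without a reference identifier. Of 9339 pairs of tested genes whose identifiers follow each other in number, 7 pairs were called together, 6 of them higher and 1 lower, and no pair was called in opposite directions. How many such pairs unrelated calls would give was not computed, so nothing is read from these counts. Neighbouring genes can be close copies that share fragments, which the deposited values do not show.

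Potri.004G109200.v3.1, on chromosome 4, rose most among the called genes that reached 5 FPKM and had no overlap between the times. It stood at 7.77, 0.832 and 1.26 FPKM in the 48 h libraries and at 125.9, 9.73 and 65.5 FPKM in the 96 h libraries (replicates 1, 2 and 3). All libraries at 96 h were above all at 48 h, but replicate 2 at 96 h lay close to replicate 1 at 48 h, and replicate 1 was the highest library at both times. The mean went from 3.29 ± 3.89 to 67.1 ± 58.1 FPKM (SD over 3 libraries at each time). On the log2 scale this was a rise of 3.76 with an SE of 0.77 (limma, adjusted p = 0.036). At 0 h each library listed the gene at 0, and by 120 h it stood at 174.8, 231.0 and 321.1 FPKM. In P. yunnanensis it lay between 0 and 4.73 FPKM in the libraries at 48 and 96 h and at 2.60, 1.35 and 32.4 FPKM at 120 h, where replicate 3 was far above the others.

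Potri.001G222900.v3.1, on chromosome 1, followed. Its levels were 3.51, 0.353 and 0 FPKM at 48 h and 57.7, 4.09 and 29.5 FPKM at 96 h. Again the groups did not overlap, while replicate 2 at 96 h was little above replicate 1 at 48 h. The mean went from 1.29 ± 1.93 to 30.4 ± 26.8 FPKM (SD over 3 libraries). The log2 rise was 3.51 with an SE of 0.76 (limma, adjusted p = 0.0417). It was at 0.12 ± 0.108 FPKM at 0 h and at 106.9 ± 37.9 FPKM at 120 h (SD, n = 3 each). In P. yunnanensis it lay between 0 and 5.6 FPKM at 48 and 96 h and at 0.615, 0.562 and 35.7 FPKM at 120 h, again with replicate 3 alone high. At 96 and 120 h the levels of both genes in P. davidiana had a similar ratio in every library. The ratio of Potri.004G109200.v3.1 to Potri.001G222900.v3.1 was 2.18, 2.38 and 2.22 in the 96 h libraries and 2.32, 2.40 and 2.15 in those of 120 h. Whether the pair shares fragments was not tested.

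Among the called genes that reached 5 FPKM and had no overlap, the deepest fall was that of Potri.013G085300.v3.1, on chromosome 13. It stood at 14.8, 19.7 and 8.03 FPKM at 48 h and at 1.57, 1.95 and 0.156 FPKM at 96 h. Every 48 h library was above every 96 h library, with a wide gap, and replicate 3 was the lowest at both times. The mean went from 14.2 ± 5.87 to 1.22 ± 0.944 FPKM (SD over 3 libraries), a log2 change of -2.80 with an SE of 0.39 (limma, adjusted p = 0.0162). Its level was 17.3 ± 4.49 FPKM at 0 h and 1.30 ± 0.267 FPKM at 120 h (SD, n = 3 each), so the group means differed little within the earlier and within the later times. In P. yunnanensis the gene was at 13.1 ± 2.03 FPKM at 0 h and already at 1.58 ± 1.66 FPKM at 48 h (SD, n = 3 each), with 1.11 ± 0.384 FPKM at 96 h.

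Potri.004G002700.v3.1, on chromosome 4, had the next deepest fall under the same conditions. Its levels were 190.1, 228.1 and 124.3 FPKM at 48 h and 16.4, 96.9 and 21.5 FPKM at 96 h. The groups did not overlap, and replicate 2 was the highest library at both times and stood well above the others at 96 h. The mean went from 180.8 ± 52.5 to 44.9 ± 45.1 FPKM (SD over 3 libraries), a log2 change of -2.39 with an SE of 0.52 (limma, adjusted p = 0.0444). At 0 h it stood at 82.3 ± 24.4 FPKM and at 120 h at 37.8 ± 10.8 FPKM (SD, n = 3 each), so the level at 48 h was the highest group mean of the series of times. In P. yunnanensis it lay between 0.262 and 1.01 FPKM in the libraries at 48 and 96 h, with means of 0.625 and 0.376 FPKM.

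**Figure D2:**
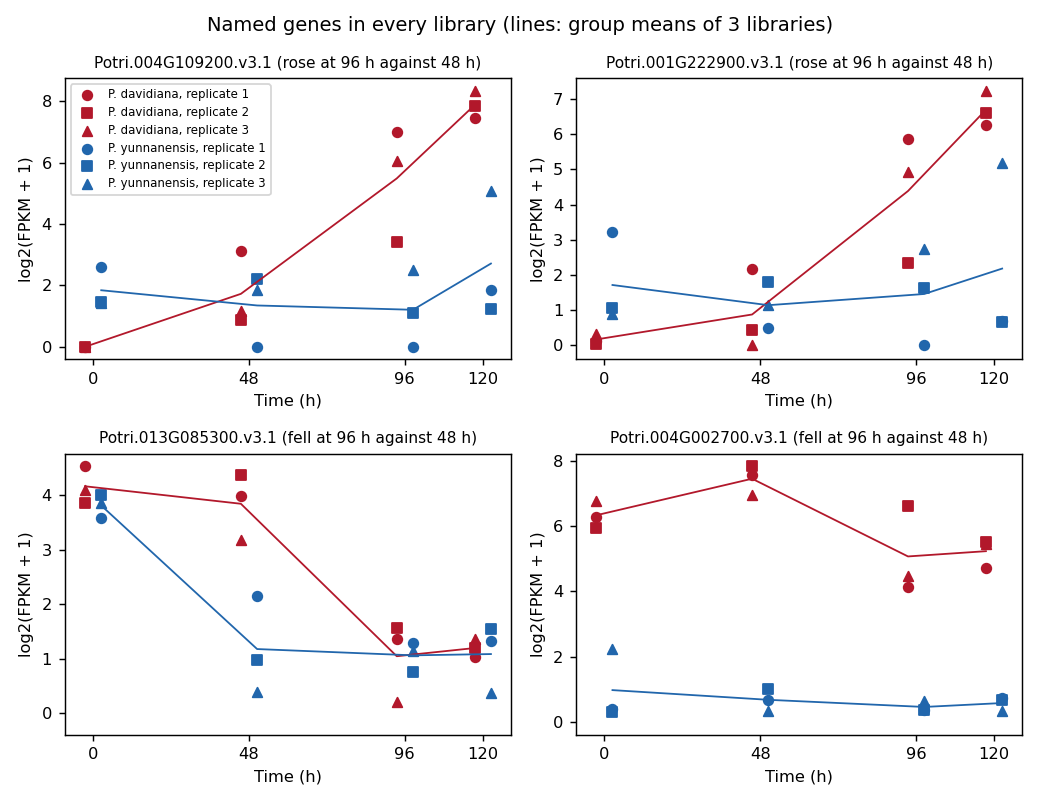
Log2(FPKM + 1) (y axis) of the 4 genes named for the size of their rise or fall against time in hours (x axis), with 1 point per library, symbols for the replicate number, and lines through group means of 3 libraries (species set slightly apart along the time axis). In P. davidiana (red) the upper genes climb from 48 to 120 h and the lower genes drop between 48 and 96 h, while in P. yunnanensis (blue) none of the 4 shows such a step between 48 and 96 h.

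The calls of these 4 genes differed in how firmly they held. Over 29 alternative fits Potri.013G085300.v3.1 had an adjusted p of 0.00616 to 0.113, and its call ended in 5 of them, among them without 48 h replicate 2 (adjusted p = 0.0748) and with the 6 compared libraries alone (adjusted p = 0.0515). The calls of Potri.004G109200.v3.1 ended in 14 of 29 (adjusted p = 0.00762 to 0.174), of Potri.001G222900.v3.1 in 16 of 28 (0.0143 to 0.181) and of Potri.004G002700.v3.1 in 18 of 29 (0.0133 to 0.192). The direction was kept in every alternative for all 4. They were chosen for groups without overlap, so leaving out 1 library without the block could not reverse it. Without 48 h replicate 2 the adjusted p of the last 3 was 0.174, 0.181 and 0.192.

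The count of called genes depended on single libraries. Without 48 h replicate 2 3 genes were called by limma, and the number with p below 0.05 before adjustment was 2337, against 3398 with all libraries. When a 96 h library was left out instead, the count was 82 (replicate 1), 79 (replicate 2) or 53 (replicate 3). With 48 h replicate 1 dropped 463 genes were called, 253 of them among the 349, and with 48 h replicate 3 dropped 332, of which 205 were. All 349 genes kept their direction when any 1 of the 6 libraries was left out. This was fixed in advance, because their 48 and 96 h libraries did not overlap. Of the 349 genes, 307 were called in at least 1 of these 6 fits, 92 in at least 3, 24 in at least 5 and 3 in all 6. With only the 6 compared libraries in the fit 63 genes were called, 45 higher and 18 lower, and 46 of them were among the 349.

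Same-numbered libraries at 48 and 96 h deviated together from their group means, with correlations across genes of 0.475, 0.338 and 0.20 for replicates 1, 2 and 3. With the replicate number as a block 954 genes (5.0%) were called, 574 (3.01%) higher and 380 (1.99%) lower, and these included all of the 349. The block count also rested on single libraries. Among the 48 h libraries, dropping replicate 1, 2 or 3 gave 1021, 14 or 323 calls, and among those of 96 h 99, 127 or 334. Leaving out replicate 2 or replicate 3 at all 4 times left 0 calls with limma under the block, with 1930 and 3688 genes at an unadjusted p under 0.05, and leaving out replicate 1 left 1053 calls. The adjusted p of the 4 named genes under the block was 0.0177, 0.0229, 0.0084 and 0.0253, in the order in which they are described.

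**Figure D3:**
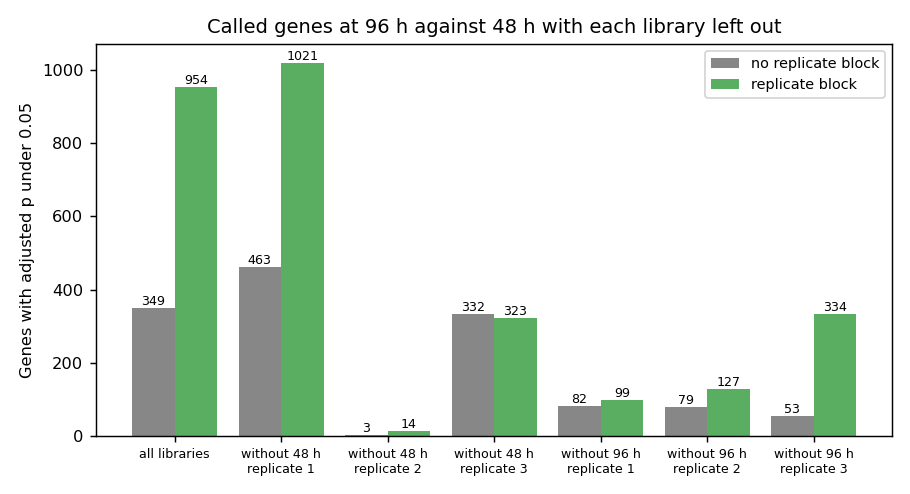
Number of genes with an adjusted p under 0.05 at 96 h against 48 h in P. davidiana (y axis, from 0) with all libraries and with each of the 6 compared libraries left out (x axis), without (grey) and with (green) the replicate number as a block. Leaving out 48 h replicate 2 leaves 3 and 14 genes, and leaving out 48 h replicate 1 leaves 463 and 1021.

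The change can be read within each pair of same-numbered libraries. The genes were called from these same libraries and did not overlap, so its direction in each pair was fixed. The values describe only how its size was spread over the pairs. Over the 221 genes that rose, the median log2 change was 1.24 from 48 h replicate 1 to 96 h replicate 1, 2.09 for replicate 2 and 1.28 for replicate 3, against 0.0544, 0.109 and -0.0592 over all tested genes. Over the 128 genes that fell it was -1.22, -1.46 and -1.24. The change of the rising genes was thus larger in the second pair than in the others. At 48 h their median level was 11.1, 7.06 and 11.7 FPKM in replicates 1, 2 and 3, and at 96 h it was 26.9, 31.0 and 27.5 FPKM. The falling genes had median levels of 33.7, 41.8 and 34.9 FPKM at 48 h and of 13.9, 14.0 and 15.3 FPKM at 96 h. In both sets replicate 2 at 48 h was the library farthest from the 96 h levels. Over all tested genes the median level at 48 h was 10.8, 8.68 and 12 FPKM in replicates 1, 2 and 3.

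A smaller set of genes was called under each of 8 other fits, namely the replicate block, the 6 compared libraries alone, all 24 libraries, scaling by median ratios, quantiles or TPM, a spread weighted by group and no variance trend. It held 26 of the 349 genes, 22 that rose and 4 that fell, with median log2 changes of 2.10 and -1.94 and none smaller than 1.57 in size. Of these, 11 were also called in at least 5 of the 6 fits without 1 library. All 8 fits kept 48 h replicate 2, and without it the main fit called 3 genes in all. The pseudocount of 0.1 (228 calls) and no filter on low values (80 calls) were not among the 8. None of the 4 genes named for the highest rises and deepest falls was called under all 8 fits. Potri.013G085300.v3.1 was called under 7, Potri.004G109200.v3.1 and Potri.004G002700.v3.1 under 5 and Potri.001G222900.v3.1 under 4.

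The libraries at 0 and 120 h were not part of the contrast and place the step in the time course, although they share each gene's spread and, through the replicate numbers, may share its deviations. From 0 to 120 h 216 of the 221 genes that rose between 48 and 96 h also had a positive change, against 59.1% of all tested genes, with a median log2 change of 1.98 against 0.156. Of them 198 (89.6%) were called higher at 120 h than at 0 h, where the background over all tested genes was 17.9%, and 1 was called lower. Among the 128 genes that fell, 123 had a negative change from 0 to 120 h, against 40.9% of all tested genes, with a median of -1.43. Of these genes 103 (80.5%) were called lower at 120 h, against a background of 9.95%, and 1 was called higher. Under median ratio scaling the numbers of same direction were 214 of 221 and 125 of 128.

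By group means the genes that rose had a median level of 8.08 FPKM at 0 h, 10.5 at 48 h, 29.3 at 96 h and 36.8 at 120 h. Those that fell had a median of 42.1 FPKM at 0 h, 34.7 at 48 h, 14.7 at 96 h and 13.5 at 120 h. Most of the distance was thus covered between 48 and 96 h in both sets, which is also how they were chosen. The step from 0 to 48 h shares the 48 h libraries with the contrast, and the step from 96 to 120 h shares those of 96 h. In the first of these steps the median log2 change was 0.117 for the rising and -0.125 for the falling genes, and in the second it was 0.285 and 0.00362.

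**Figure D4:**
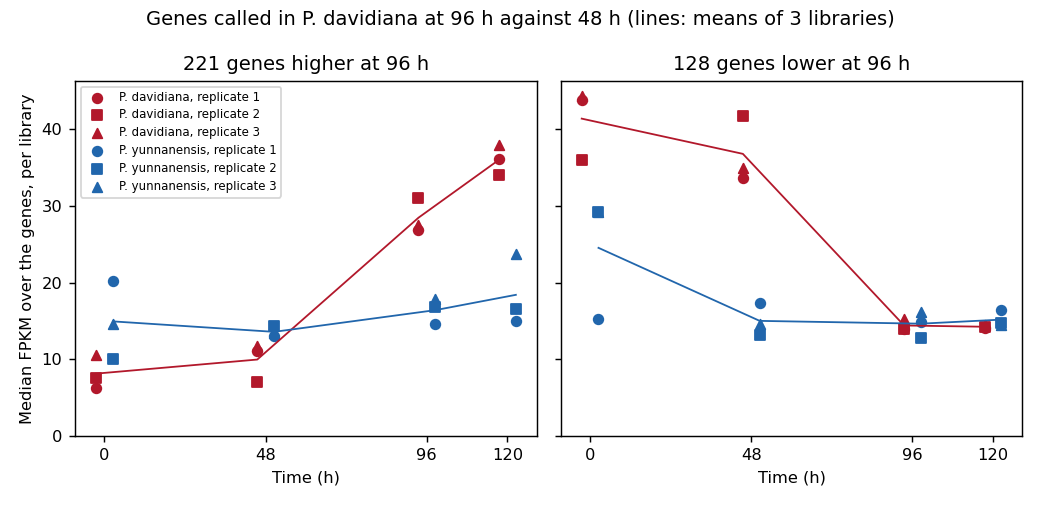
Median FPKM per library (y axis) over the 221 genes higher (left) and the 128 genes lower (right) at 96 h against 48 h in P. davidiana, plotted against time in hours (x axis), with symbols for the replicate number and lines through the means of 3 libraries (species set slightly apart along the time axis). In P. davidiana (red) the 96 h libraries lie at 26.9 to 31.0 FPKM on the left and 13.9 to 15.3 FPKM on the right, and in P. yunnanensis (blue) the 48 and 96 h libraries lie at 13 to 17.8 FPKM on the left and 12.8 to 17.3 FPKM on the right.

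Across the whole tested set the middle step was intermediate among the 3 steps of the time course. In the same fit 1277 genes (6.70%) were called from 0 to 48 h, 3.78% of the tested genes as higher and 2.92% as lower, and 0 from 96 to 120 h with limma, where 546 genes had an unadjusted p under 0.05. With the replicate block the counts were 2340 and 0, the latter with 933 genes at an unadjusted p under 0.05. The median size of the log2 change, without regard to sign, was 0.333 from 0 to 48 h, 0.298 from 48 to 96 h and 0.179 from 96 to 120 h. The last step covers 24 h and the others 48 h, adjacent steps share libraries, and the difference between the steps was not tested.

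The comparison with P. yunnanensis, which shares no library with the P. davidiana contrast, asked whether the same genes moved there between 48 and 96 h. As deposited, the median log2 change over the 19068 genes was 0.20 in P. yunnanensis and 0.0315 in P. davidiana, and median ratio scaling brought them to -0.0123 and -0.0129. Genes are therefore counted as above or below the median of 0.20 in P. yunnanensis. The log2 changes themselves are printed without subtracting it. Of the 221 genes that rose in P. davidiana, 117 (52.9%) lay above this median in P. yunnanensis, about the share of all tested genes, and their own median was 0.216. Of the 128 genes that fell, 99 (77.3%) lay below it, with a median of -0.109, against 50% of all tested genes. Under median ratio scaling 114 of 221 were above 0 and 100 of 128 below 0. In P. yunnanensis limma called 1 gene of 19068 (0.00524%), which was not among the 349. The same 24-library fit called 243 genes (1.27%) in P. davidiana, 188 (0.986%) higher and 55 (0.288%) lower.

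As deposited, the median level of all tested genes in P. yunnanensis was 11.9 FPKM at 48 h and 14.1 FPKM at 96 h. The genes that rose in P. davidiana had a median level of 13.9 FPKM at 48 h and 16.8 FPKM at 96 h in P. yunnanensis, and those that fell had 14.4 and 13.8 FPKM. Under median ratio scaling the median log2 change there was 0.00781 for the former and -0.33 for the latter. At 0 h the falling genes had median levels of 15.2, 29.2 and 29.2 FPKM in the P. yunnanensis libraries, and at 48 h 17.3, 13.1 and 14.6 FPKM. The replicate 1 library of P. yunnanensis at 0 h was thus already within the range of the later libraries. Few of the genes lacked expression in P. yunnanensis, as 17 of the 221 (7.69%) and 4 of the 128 (3.12%) were under 1 FPKM at both times, against 5.56% of all tested genes.

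**Figure D5:**
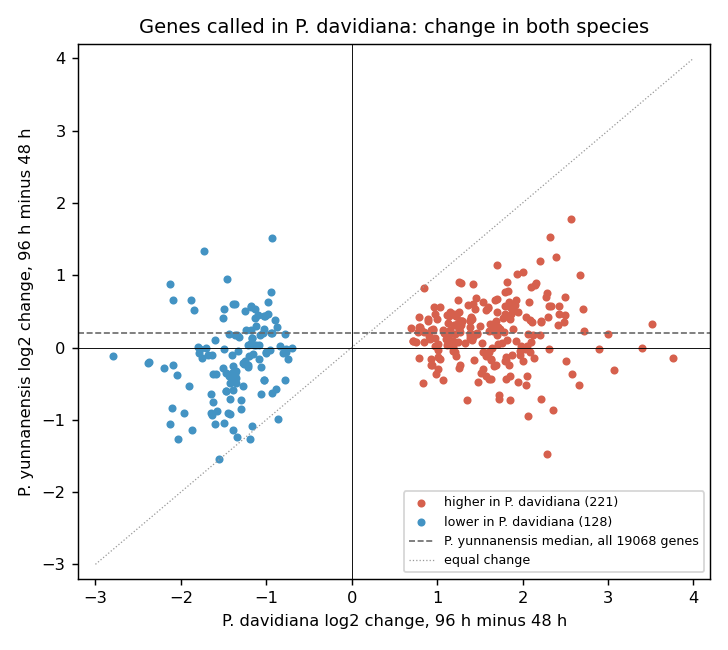
Log2 change from 48 to 96 h in P. yunnanensis (y axis, 24-library fit) against that in P. davidiana (x axis) for the 221 genes higher (red) and the 128 genes lower (blue) in P. davidiana, with 1 point per gene. The dashed line marks the median of all 19068 genes in P. yunnanensis, 0.20, about which the red points scatter, while 99 of the 128 blue points lie below it.

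The test of the difference itself, with the change in P. yunnanensis subtracted from that in P. davidiana and all 24 libraries in the fit, called 1 of 19068 genes (0.00524%), with 1868 at an unadjusted p under 0.05. The gene, Potri.001G312700.v3.1 on chromosome 1, was under 5 FPKM and is named because it was the single call, after its values were seen. It is among the 134 genes that reached 1 FPKM in all libraries of 1 time and none of the other, so it entered the test only through the 96 h group in which it was high, and its call is given as a description. It stood at 0.18, 0 and 0.268 FPKM at 48 h and at 4.55, 3.26 and 3.93 FPKM at 96 h in P. davidiana, so all libraries at 96 h were well above those at 48 h. In P. yunnanensis each 48 h library listed it at 0, as did those of 96 h except replicate 3 (0.189 FPKM). The difference of the log2 changes was 2.01 (SE 0.28, adjusted p = 0.0119 with limma). The 24-library fit uses 1 spread per gene for both species, and values at or near 0 in P. yunnanensis make that spread smaller. The SE of the gene's change within P. yunnanensis was 0.198 in that fit. This SE comes from the shared spread and not from the P. yunnanensis libraries alone. The fit of the 12 P. davidiana libraries gave an SE of 0.261 for the gene's change there. In P. davidiana alone its log2 change was 2.09 (SE 0.26, adjusted p = 0.0132 with limma), called under all 8 other fits and in 5 of the 6 without 1 library, but not without 48 h replicate 2 (adjusted p = 0.0748). At 120 h it stood at 2.93, 2.88 and 4.86 FPKM, and at 0 h at 0, 0 and 0.338 FPKM. The call of the difference ended in 9 of 23 alternatives (adjusted p = 0.000431 to 0.257), among them a pseudocount of 0.1 (adjusted p = 0.257), the 12 libraries at 48 and 96 h alone (adjusted p = 0.0976) and leaving out 48 h replicate 2 (0.059) or 96 h replicate 1 (0.0597) of P. davidiana, or any P. yunnanensis library but 96 h replicate 3 (0.0542 to 0.0757).

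Among genes of at least 5 FPKM no difference between the species was called. The smallest unadjusted p for a larger change in P. davidiana belonged to Potri.019G006150.v3.1 on chromosome 19 (difference of 2.08, SE 0.40, adjusted p = 0.211 with limma) and Potri.003G062300.v3.1 on chromosome 3 (1.65, SE 0.34, adjusted p = 0.212). Potri.019G006150.v3.1 stood at 1.29, 0.758 and 3.30 FPKM at 48 h and at 9.08, 12.9 and 6.43 FPKM at 96 h in P. davidiana, with no overlap, and at up to 0.201 FPKM in P. yunnanensis at both times. Potri.003G062300.v3.1 stood at 1.92, 2.04 and 3.00 FPKM at 48 h and at 7.58, 9.96 and 10.6 FPKM at 96 h, again with no overlap, and had 0 FPKM listed for every P. yunnanensis library at these times. Both were called higher in P. davidiana alone, with log2 changes of 1.97 (SE 0.35, adjusted p = 0.0263 with limma) and 1.65 (SE 0.29, adjusted p = 0.0245). These calls were kept in 2 and 3 of the 6 fits without 1 library, and both ended without 48 h replicate 2 (adjusted p = 0.108 and 0.103).

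In the other direction, Potri.006G252200.v3.1 on chromosome 6 (difference of -2.39, SE 0.43, adjusted p = 0.19 with limma) stood at 152.7, 203.7 and 163.9 FPKM at 48 h and at 110.1, 121.4 and 194.4 FPKM at 96 h in P. davidiana, where the groups overlapped and no change was called (adjusted p = 0.568). In P. yunnanensis it was the gene called between these times, from 1.74, 2.46 and 0.942 FPKM to 11.1, 9.04 and 10.2 FPKM (log2 change 2.07, SE 0.30, adjusted p = 0.0259 with limma). Potri.009G135300.v3.1 on chromosome 9 (difference of -2.11, SE 0.40, adjusted p = 0.211 with limma) was at 1.40, 1.78 and 2.48 FPKM at 48 h and 0.518, 0 and 0.685 FPKM at 96 h in P. davidiana, a log2 change of -1.06 that was not called (adjusted p = 0.0833 with limma) but was with the replicate block (adjusted p = 0.043). In P. yunnanensis its level was 3.33, 2.67 and 1.60 FPKM at 48 h and 5.65, 4.98 and 8.17 FPKM at 96 h, a log2 change of 1.05 that was not called either (adjusted p = 0.322). Its libraries at 96 h lay below those at 48 h in P. davidiana and above them in P. yunnanensis, with no overlap in either species. It too is among the 134 genes, since of the 48 and 96 h libraries of P. davidiana only those at 48 h reached 1 FPKM. The filter thus favoured its separation there. At 0 h it stood at 2.66 ± 0.740 FPKM and at 120 h at 1.54 ± 0.444 FPKM in P. davidiana (SD, n = 3 each), so only the 96 h level was under 1 FPKM.

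Separation of the 3 libraries at 96 h from the 3 at 48 h, without regard to the test, was seen upwards in 2329 genes (12.2%) and downwards in 1790 (9.39%) in P. davidiana. All 349 called genes were among them. Of the separated genes, 40 separated upwards in P. davidiana and downwards in P. yunnanensis, and 162 did the reverse. Both counts are of values as deposited, in which the P. yunnanensis changes have a median of 0.20. The number of opposite separations that unrelated changes in the species would give was not computed. No opposite response of the species is therefore read from either count.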

How the data were processed

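Messenger RNA of cutting stems was sequenced, and the authors deposited 1 table of FPKM values per gene and library, per the file headers. The sources used here give no aligner, counting tool or genome build. Library columns were matched to samples by the library names in the labels. Values were taken as log2(FPKM + 1), a gene was kept if 3 or more of the 6 compared libraries reached 1 FPKM, and limma 3.58.1 (R 4.3.3, variance trend, Benjamini-Hochberg adjustment, threshold 0.05) was fitted to all 12 P. davidiana libraries (8 residual degrees of freedom), or to 24 libraries (16) for the species difference. Python 3.11.15, numpy 2.4.6, pandas 2.3.3 and matplotlib 3.10.9 were used for summaries and plots. The fit was tested on simulated data.

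The labels do not say what the replicate number marks, nor whether libraries came from separate plants, so the spread behind the p-values is that between libraries and could be technical. The numbers were taken to pair the 48 and 96 h libraries because the same-number correlations of 0.475, 0.338 and 0.20 all exceed 0.1. The block fit of all P. davidiana libraries also spans the other times. There replicate 3 gave -0.048 (0 and 96 h), -0.0143 (0 and 120 h) and -0.054 (48 and 120 h). It gave 0.27 (0 and 48 h) and 0.215 (96 and 120 h). Replicates 1 and 2 gave 0.103 to 0.566 over all pairs of times. In P. yunnanensis at 48 and 96 h the values were 0.329, 0.171 and 0.215, but another number reached 0.398 for replicate 2. The main fit has no block, because the labels do not say what the replicate number marks. The sets of called genes summarised here come from that fit. Absolute depth is unknown.

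Named genes are the largest changes, 2 in each direction, of called genes that reached 5 FPKM in the higher group and did not overlap. For the species difference, where none of at least 5 FPKM was called, they are the 2 each way with the smallest unadjusted p. The genes, rules and gene lists were chosen with earlier results of these data known. The lists go by product names, could not be matched to identifiers and were not analysed here. Alternatives covered the pseudocount, the filter, scaling, the variance model, the libraries fitted, each library left out and the replicate block.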

Additional observations from a re-analysis of the deposited data

Results flagged for a closer look

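Potri.001G312700.v3.1 differed between the species in its change from 48 to 96 h with a log2 difference of 2.01 and an SE of 0.28 (limma, adjusted p = 0.0119). Its P. davidiana mean went from 0.149 ± 0.137 to 3.91 ± 0.643 FPKM and its P. yunnanensis mean from 0 to 0.063 ± 0.109 FPKM (SD, n = 3 each). The gene passed the filter on low values only through the 96 h P. davidiana libraries, in which it was high. Its values at or near 0 in P. yunnanensis also made the spread shared by both species smaller. The call of the difference ended in 9 of 23 alternatives (limma, adjusted p = 0.000431 to 0.257).

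Potri.009G135300.v3.1 differed by -2.11 (SE 0.40). Every 96 h library lay below every 48 h library in P. davidiana and above every one in P. yunnanensis, while the test of the difference missed the threshold (adjusted p = 0.211 with limma, 0.0868 to 0.435 over 23 alternatives). Of the 48 and 96 h libraries of P. davidiana only those at 48 h reached 1 FPKM. The gene passed the filter through that group, which favoured its separation there. Its P. davidiana mean was 2.66 FPKM at 0 h and 1.54 FPKM at 120 h. The pattern was not particular to this gene. As deposited, 162 tested genes separated downwards in P. davidiana and upwards in P. yunnanensis, and 40 did the reverse. Over all tested genes the P. yunnanensis changes had a median of 0.20.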

How the results depend on the processing

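The count of 349 genes at 96 h against 48 h became 228 with a pseudocount of 0.1, 80 with no filter on low values, 193 with the spread weighted by group and 63 with only the 6 compared libraries. It stayed within 1.5 times of 349 with TPM scaling (367), quantile normalization (489), a filter of 5 FPKM (385), no variance trend (244), median ratio scaling (388), a log2 change of at least 1 in size (298) and all 24 libraries (243). With 1 library left out it ran from 3 to 463, and the lowest value came without 48 h replicate 2. The replicate block gave 954 genes, 729 with the 6 compared libraries and 1012 with median ratio scaling, the last 2 chosen after seeing the data. Within the block, also added after seeing the data, the count ran from 14 to 1021 without 1 library (99 and 127 without 96 h replicates 1 and 2) and from 0 to 1053 without 1 replicate number, where limma's 0 came with 1930 (without replicate 2) and 3688 genes (without replicate 3) at an unadjusted p under 0.05. The single species difference became 0 with a pseudocount of 0.1, a filter of 5 FPKM or only the 12 libraries at 48 and 96 h (limma, with 1725, 1418 and 2109 genes at an unadjusted p under 0.05), 18 with no filter, and 0 to 3 with 1 library left out. It was 1 under the replicate block, across or within species. The cause of these shifts was not tested. No named gene changed direction. Those named for their rise or fall had groups without overlap, so leaving out 1 library without the block could not reverse them. Those named for the species difference were picked by small p-values in these same data. The kept direction is therefore not read as a sign of stability. Among the 5 genes named for the species difference, Potri.006G252200.v3.1 was called with no filter (adjusted p = 0.0485) and Potri.019G006150.v3.1 without P. davidiana 48 h replicate 3 (adjusted p = 0.0122, limma). With 3 libraries a group and unknown absolute depth, values under 1 FPKM carry little precision.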
